A study of Mus musculus with 6 samples.

Results

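The genes described here are 10 members of the WNT signalling system in mouse brown preadipocytes, out of 26264 genes in the count files: the secreted frizzled-related proteins Sfrp1, Sfrp2 and Sfrp4, the Dickkopf genes Dkk2 and Dkk3, Wif1, the ligand genes Wnt4, Wnt5a and Wnt10b, and Axin2. They were taken by symbol, and all 10 were found in all 6 libraries. The list was selected on the measured difference between FGF8-pretreated and untreated cells, in which Sfrp1 was much lower after FGF8, so the FGF8 comparison is given for these genes as a description, without a test. The change over differentiation was not used to choose them and is tested below.

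The cells were brown preadipocytes from the stromal vascular fraction of wild-type Bl6N mice, immortalized with the SV40 large T antigen, and bulk mRNA was sequenced. One arm was pretreated with 5.5 nM fibroblast growth factor 8 (FGF8) for 48 h and the other was labelled untreated, where the methods of the study speak of vehicle. Each arm was harvested at the end of pretreatment (D0), on D3 and on D7 of an adipogenic protocol with insulin, T3, IBMX, dexamethasone, indomethacin and rosiglitazone. The study's results text describes a last harvest 9 days after the pretreatment, with 2 days of induction and 7 days of differentiation medium. Its methods give 6 days of differentiation instead. D7 of the labels was taken, as an assumption, to be the harvest at 9 days. FGF8 was therefore present before D0 only. There was 1 library for each of the 6 conditions, and all came from 1 immortalized line, so no value has a replicate error. The growth text in the labels also describes primary white preadipocytes and other FGFs, while titles and design name immortalized brown cells.

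WNT ligands are secreted lipid-modified glycoproteins that bind Frizzled receptors and, in the β-catenin branch, the coreceptors LRP5 and LRP6. Stabilized β-catenin then works with TCF/LEF factors on target genes, of which Axin2, a scaffold of the β-catenin destruction complex and a feedback inhibitor, is a widely used one. SFRPs and WIF1 bind WNT ligands outside the cell, DKK2 binds LRP5 and LRP6, and DKK3 is a divergent Dickkopf protein. Canonical WNT signalling, classically through Wnt10b, holds preadipocytes undifferentiated, while Wnt5a is mostly known for signalling without β-catenin.

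The stretch of 250 bases upstream of the start of the Ensembl canonical transcript (GRCm39, GENCODE) is shown for Axin2, the feedback target, and for Sfrp1 and Sfrp2, whose levels were lower after FGF8 at all 3 time points. Capitals mark a match to the TCF/LEF letters, CTTTG followed by AA, AT, TA or TT, searched on both strands. Sequences are printed 5′ to 3′ on the strand of the gene, which is the plus strand for all 3. For 4 members, Axin2, Dkk2, Dkk3 and Wnt10b, this start lies inside the gene span given with each gene, which begins at an earlier transcript, by 469 bases for Axin2.
Axin2, chr11:108811388-108811637: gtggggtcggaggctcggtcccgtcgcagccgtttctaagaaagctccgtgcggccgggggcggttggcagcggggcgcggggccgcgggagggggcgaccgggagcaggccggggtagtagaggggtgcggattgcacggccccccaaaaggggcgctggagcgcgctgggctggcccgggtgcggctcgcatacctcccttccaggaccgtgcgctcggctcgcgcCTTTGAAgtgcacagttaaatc
Sfrp1, chr8:23901013-23901262: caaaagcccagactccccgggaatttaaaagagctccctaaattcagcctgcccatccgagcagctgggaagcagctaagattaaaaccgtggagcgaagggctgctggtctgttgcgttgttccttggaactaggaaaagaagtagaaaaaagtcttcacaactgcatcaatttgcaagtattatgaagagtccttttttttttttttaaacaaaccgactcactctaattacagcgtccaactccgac
Sfrp2, chr3:83673231-83673480: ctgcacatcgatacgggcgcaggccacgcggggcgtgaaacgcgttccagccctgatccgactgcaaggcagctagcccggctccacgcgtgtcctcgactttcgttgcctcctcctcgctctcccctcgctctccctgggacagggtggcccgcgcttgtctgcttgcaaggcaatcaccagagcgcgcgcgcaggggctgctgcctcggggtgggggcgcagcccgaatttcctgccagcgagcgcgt

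Axin2 held 1 match, CTTTGAA, which began 22 bases before the canonical start and thus within the full gene span. The stretches of 9 members were read, and none of the other 8 held one in this window, and 14.641% of 21747 such stretches genome-wide did. The ETS letters CCGGAAG (6.893% of all stretches) and the AP-1 letters TGACTCA (4.028%) were found in none of the 9. The GC content was 72.0% for Axin2 and 44.0% for Sfrp1, against a median of 53.2% over all stretches. In RefSeq promoter windows of the older build GRCm38.p6, where 6 of the 10 members were listed, no member held the TCF/LEF letters, Axin2 included, so its match depends on which annotated start is taken. A match is a description of letters and no measure of binding.

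The libraries held 16403254 to 38551551 counts in genes. Levels below are normalized counts, which are the counts of a library divided by its DESeq2 size factor. Log2 differences between libraries use a pseudocount of 1, folds are plain ratios of normalized counts, and intervals are 95% exact binomial intervals of the ratio of a pair of counts, which cover counting error only. A gene was put 2-fold lower or higher only where its mean in the pair reached 20 normalized counts. In bulk RNA, fewer cells of a type and less RNA per cell cannot be told apart.

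**Figure D1:**
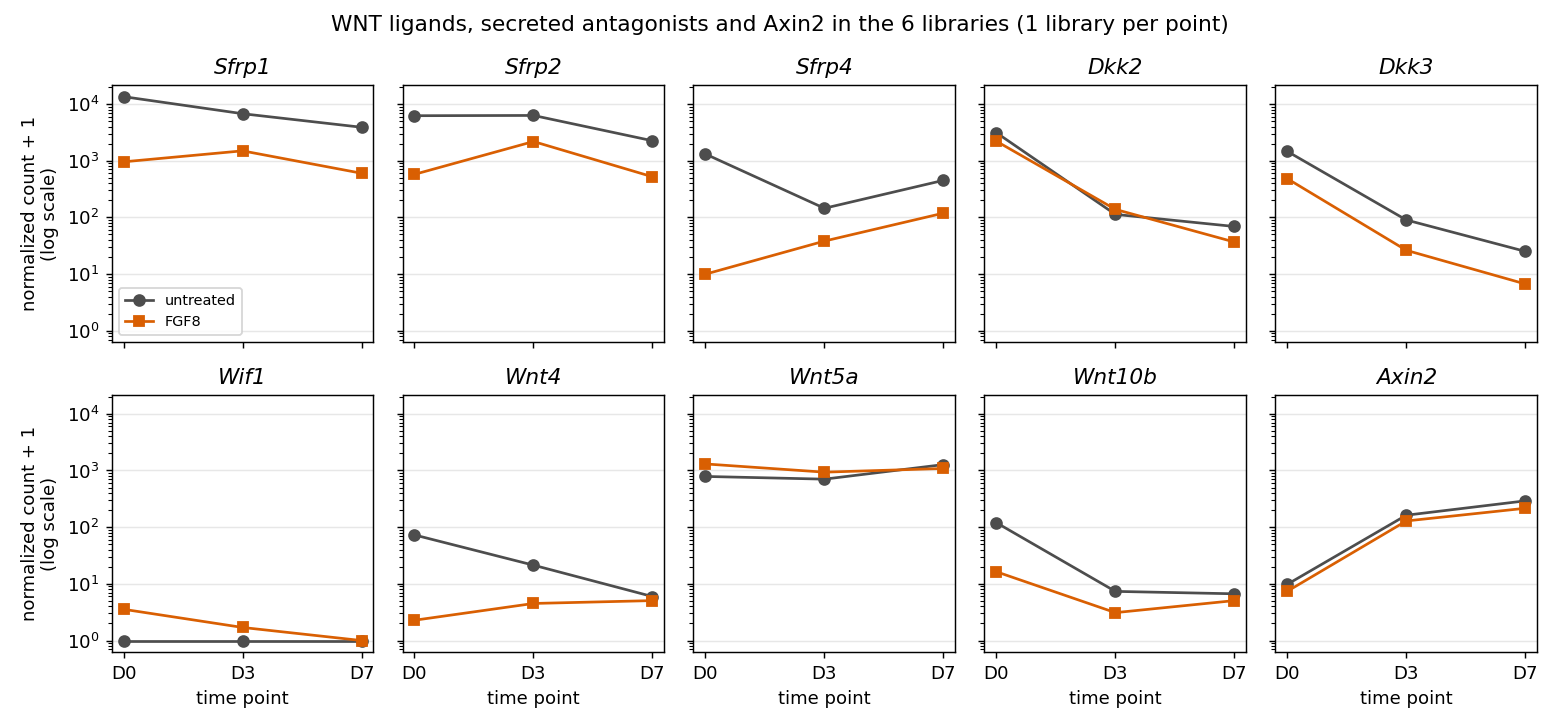
Level of each of the 10 genes in the 6 libraries, as normalized counts plus 1 on a log axis, against the time point, with 1 point per library and no error bars because each condition is 1 library. The 3 SFRP genes lie lower in the FGF8 arm at every time point, Dkk2, Dkk3 and Axin2 move in parallel in both arms, and Wnt5a stays between 702.5 and 1305.

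At D0, 8 of the 10 members passed the level minimum and 6 of these were at least 2-fold lower after FGF8, while none was higher. Across all 12657 genes that passed, 10.8% were lower and 7.27% higher by the same rule. Sfrp4, Wnt4 and Wnt10b passed through their untreated library only. At D3, 4 of 7 members were lower (12.1% of 12892 genes) and none was higher (3.80%). At D7, 3 of 6 were lower (8.74% of 13070 genes) and none was higher (1.12%). The median log2 difference of the members that passed was -3.16, -1.53 and -1.42, where all genes had 0.05, 0.08 and 0.08. Because the list was drawn from this comparison, nothing is read from these shares.

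Sfrp1 (chr8:23901263-23939648, GRCm39) was the most abundant member in untreated cells at D0. Its level in the untreated arm was 13505 at D0, 6752 at D3 and 3891 at D7, and in the FGF8 arm 955.0, 1492 and 600.0. Every FGF8 library lay below every untreated library, but these are 3 different days with 1 library each. How many other genes show such a gap was not counted. Sfrp1 was 14.1-fold lower after FGF8 at D0, with a log2 difference of -3.82 (95% interval -3.93 to -3.71). It was 4.52-fold lower at D3 (log2 -2.18, -2.25 to -2.10) and 6.49-fold lower at D7 (log2 -2.70, -2.81 to -2.59). From D0 to D3 its level went 2.00-fold lower in untreated cells and 1.56-fold higher after FGF8, so the arms moved towards each other before both were lower again at D7.

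Sfrp2 (chr3:83673481-83681623), a close relative with the same cysteine-rich WNT-binding fold, had 6224, 6289 and 2248 normalized counts in untreated cells at D0, D3 and D7. After FGF8 it had 573.5, 2181 and 519.5. The highest FGF8 value, at D3, lay just under the lowest untreated one, at D7. Sfrp2 was 10.9-fold lower after FGF8 at D0 (log2 -3.44, -3.58 to -3.30), 2.88-fold lower at D3 (log2 -1.53) and 4.33-fold lower at D7 (log2 -2.11). Within the FGF8 arm it was 3.80-fold higher at D3 than at D0 and 4.20-fold lower again at D7. Of the exon bases of Sfrp2, 21.0% overlap the lncRNA gene Gm26771 on the other strand, and the strand setting of the counting is not given in the sources used here.

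Sfrp4 (chr13:19807274-19817164) showed the widest gap at D0. Untreated cells had 1312, 143.8 and 449.3 normalized counts at D0, D3 and D7. FGF8-pretreated cells had 8.96, 37.2 and 117.9, the first from 7 counts. The lowest untreated value, at D3, lay just above the highest FGF8 value, at D7. Sfrp4 was 146-fold lower after FGF8 at D0, and counting error alone leaves 70.7-fold to 365-fold. The gap was 3.87-fold at D3 and 3.81-fold at D7. From D0 to D3 the arms went in opposite directions, 9.12-fold lower in untreated cells and 4.15-fold higher after FGF8, and from D3 to D7 both went higher by a like factor, 3.12-fold and 3.17-fold.

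The summed preadipocyte and stromal markers were lower after FGF8 at each time point, as the SFRP genes were. From D0 to D3 the marker sum fell in the FGF8 arm, though 1 of these markers, Ly6a, rose there (1516 to 2092). Over the same interval Sfrp1, Sfrp2 and Sfrp4 went 1.56-fold, 3.80-fold and 4.15-fold higher in that arm. The summed level of 7 such markers was 133064 in untreated and 33698 in FGF8-pretreated cells at D0, 39307 against 10721 at D3, and 31027 against 7142 at D7. Of the 7, 6 were lower after FGF8 at D0 and D3 and all 7 at D7. Pdgfra, the platelet-derived growth factor receptor that marks adipocyte progenitors, went from 68261 to 9680 at D0, while Thy1 was higher (2773 to 4427). Adipocyte markers (6 genes) summed to 357418 and 621664 at D3. Brown adipocyte markers (6 genes) summed to 373 in untreated and 1462 in FGF8-pretreated cells at D0, 3847 and 12211 at D3, and 127595 and 151613 at D7. Most of the D0 sum after FGF8 was Ucp1 (0 against 1328). At D0, 2 of the 6 were lower after FGF8, Dio2 (304 to 60.2) and Ppargc1a (48.5 to 15.4). At D7, 2 of the 6 were lower, Dio2 (26.3 to 18.7) and Elovl3 (6257 to 4788). Mural and smooth muscle markers (5 genes) summed to 2294 and 1168 at D0, 5225 and 2892 at D3, and 3399 and 3152 at D7. At D0, 3 of the 5 were lower after FGF8, while Cspg4 (286 to 713) and Myh11 (16.2 to 21.8) were higher. Endothelial markers (4 genes) summed to 1620 in untreated and 71.7 in FGF8-pretreated cells at D0, most of the untreated sum being Kdr (1288 against 7.68). Of the 4, 2 were lower after FGF8 at D0, while Pecam1 (1.47 to 12.8) and Cdh5 (4.41 to 8.96) were low and went higher. Markers of macrophages (6 genes) summed to 306 and 170 at D0 and to between 138 and 251 later, with Adgre1 at 0 in all 6 libraries. The part of these markers in the SFRP differences was not tested.

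Dkk2 (chr3:131790336-131886065) was lower after FGF8 at D0 by a small factor only. Its levels were 3120, 112.0 and 68.1 in untreated cells and 2211, 137.6 and 35.8 after FGF8. The difference was 1.41-fold lower at D0 (log2 -0.50, -0.59 to -0.40). At D3 the interval spanned 0 (log2 0.29, -0.07 to 0.68), and at D7 Dkk2 was 1.91-fold lower (log2 -0.91, -1.48 to -0.40). Both D0 libraries lay far above the other 4, whichever the arm.

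Dkk3 (chr7:111712904-111758760, minus strand) had 1460, 89.1 and 24.1 normalized counts in untreated cells and 481.4, 25.3 and 5.69 after FGF8. It was 3.03-fold lower at D0 (log2 -1.60, -1.78 to -1.43) and 3.53-fold lower at D3 (log2 -1.78, -2.44 to -1.22). At D7 it rested on 34 and 7 counts and missed the level minimum. Wif1 (chr10:120869865-120936555) was close to undetected, with 2 counts at D0 and 1 count at D3 in the FGF8 arm and 0 in the other 4 libraries. A count of 0 allows up to 3 counts in a library.

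**Figure D2:**
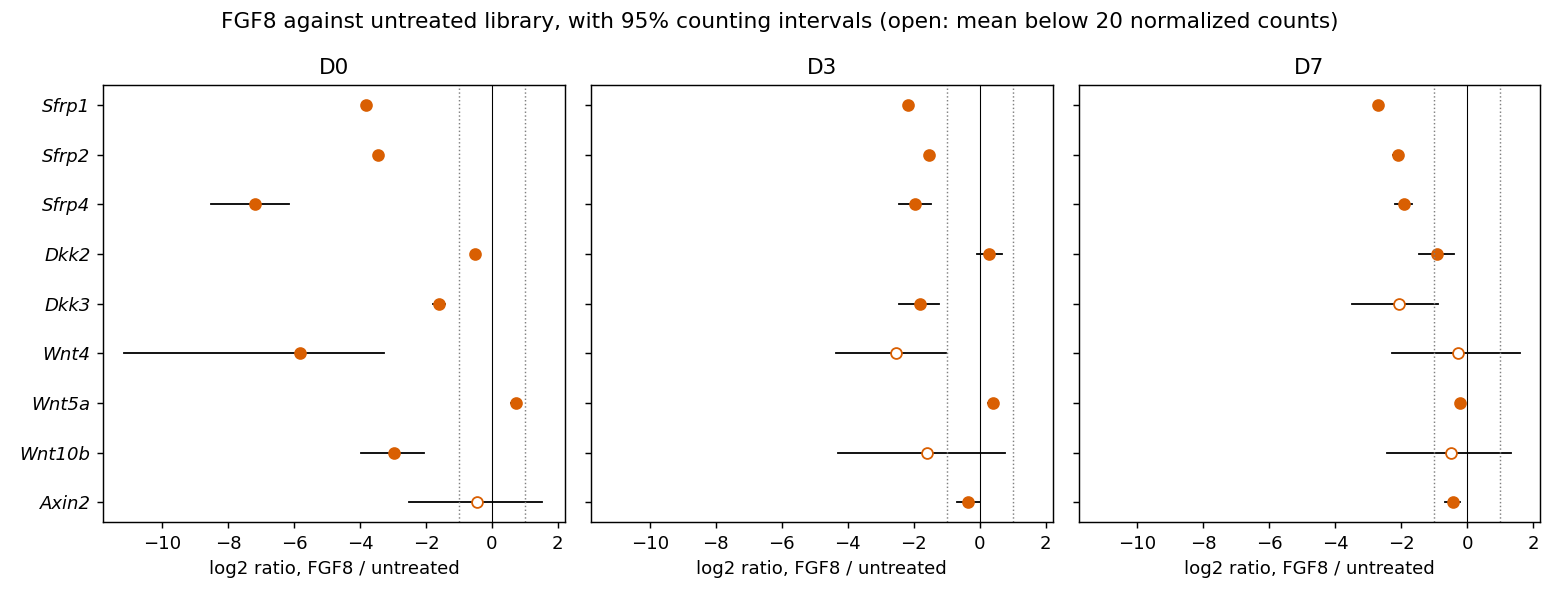
Log2 ratio of FGF8-pretreated to untreated cells for the 9 genes other than Wif1 at D0, D3 and D7, with 95% exact binomial counting intervals, 1 library per arm, open points for a mean below 20 normalized counts and dotted lines at 2-fold. Sfrp1, Sfrp2 and Sfrp4 lie left of 0 in all 3 panels, and Wnt5a lies right of 0 at D0 and D3 and left of it at D7.

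Among the ligands, Wnt5a (chr14:28226495-28249405) was the most steady of the 10 genes, with 784.4, 702.5 and 1270 normalized counts in untreated cells and 1305, 933.6 and 1084 after FGF8. Its highest library was 1.86 times its lowest. It was 1.66-fold higher after FGF8 at D0 (log2 0.73, 0.58 to 0.89), 1.33-fold higher at D3 (log2 0.41, 0.27 to 0.56) and 1.17-fold lower at D7 (log2 -0.23, -0.33 to -0.12). None of these reached 2-fold. No replicate shows how far such small differences vary between cultures.

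Wnt4 (chr4:137004373-137027037) was low. Its counts were 49, 16 and 7 in untreated cells and 1, 5 and 5 after FGF8. At D0 the ratio was 56.2-fold lower after FGF8, with a counting interval of 9.63 to 2265. At D3 and D7 it missed the level minimum. Wnt10b (chr15:98668593-98690045, minus strand), the ligand best known for holding adipogenesis back, had 81, 5 and 8 counts in untreated cells and 12, 3 and 5 after FGF8. It was 7.74-fold lower at D0 (log2 -2.87, -3.96 to -2.07), from 119.0 to 15.4 normalized counts, and was too low to compare later. Of the exon bases of Wnt10b, 9.6% overlap Wnt1 on the other strand, which had at most 2 counts in any library.

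Axin2 (chr11:108811169-108841609) was nearly absent at D0, with 6 counts in untreated and 5 in FGF8-pretreated cells. Its levels were 8.81, 161.6 and 290.3 in the untreated arm and 6.40, 127.8 and 214.6 in the FGF8 arm. It was 1.27-fold lower after FGF8 at D3 (log2 -0.34, -0.67 to -0.001) and 1.35-fold lower at D7 (log2 -0.43, -0.66 to -0.21). The arms differed by less than 2-fold at D3 and D7, and the few counts at D0 cannot show a difference.

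Levels of different genes were compared per kb of exon. Untreated cells at D0 were led by Sfrp1 (2798 normalized counts per kb) and Sfrp2 (2706), followed by Dkk2 (735.3), Sfrp4 (313.9), Dkk3 (213.6) and Wnt5a (97.6), with Wnt10b (23.4), Wnt4 (14.3) and Axin2 (1.27) far below. FGF8-pretreated cells at D0 were led by Dkk2 (521.1), with Sfrp2 (249.4), Sfrp1 (197.9), Wnt5a (162.4) and Dkk3 (70.4) after it. At D3 and D7 Sfrp2 led in both arms. With 1 library each, the order of close neighbours such as Sfrp1 and Sfrp2 in untreated cells at D0 has no replicate spread to be read against.

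The 3 SFRP genes together gave 5818, 4167 and 1891 normalized counts per kb in untreated cells at D0, D3 and D7, and 449.4, 1266 and 378.4 after FGF8. Dkk2 and Dkk3 together gave 948.8, 39.4 and 19.6 in untreated and 591.5, 36.1 and 9.26 in FGF8-pretreated cells. The 3 ligands together gave 135.3, 92.7 and 160.1 against 165.6, 117.3 and 136.6. Wnt5a made up 72.2% of the ligand sum in untreated cells at D0 and 94.3% to 99.1% in the other 5 libraries.

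**Figure D3:**
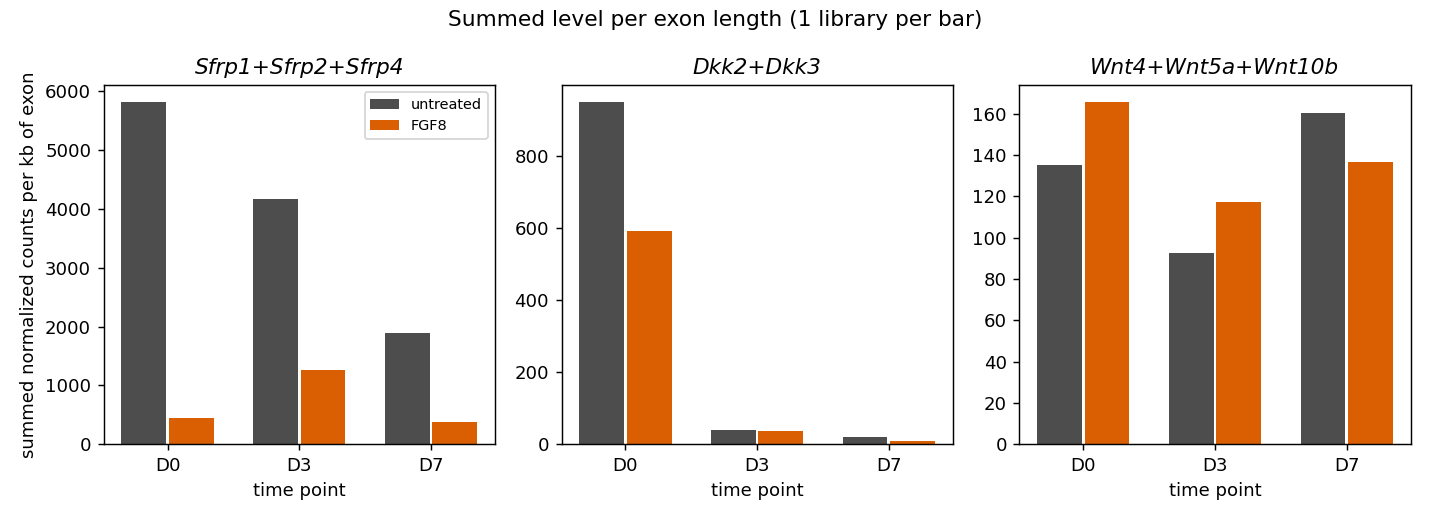
Summed level per kb of exon of the SFRP genes, the Dickkopf genes and the ligands at each time point, with 1 library per bar and bars from 0, each panel on its own scale. The SFRP sum is lower after FGF8 at each day (449.4 against 5818 at D0), the Dickkopf sum drops after D0 in both arms, and the ligand sum lies between 92.7 and 165.6.

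Differentiation was compared over both arms together, with edgeR's quasi-likelihood test, the arm as a term and Benjamini-Hochberg adjustment over 14569 genes. The arms stand in for replicates, so a change that differs between arms counts as error, and 2 residual degrees of freedom remain. From D0 to D3, 3 of the 9 tested members fell (19.8% of all genes) and 1 rose (26.2%). From D0 to D7 the counts were again 3 (24.8%) and 1 (29.2%). From D3 to D7 none of the 9 passed, where 0.00686% of genes fell and 0.0618% rose. In that interval 5 members and 3110 genes had an unadjusted p under 0.05 in edgeR, and DESeq2 called 3 members lower. The share of all genes that DESeq2 called was not computed. The members called changed in each interval when the FGF8 D0 or the untreated D0 library was left out. Such a fit has 1 library at D0, and its share of all genes called was not computed. Its counts are therefore listed only among the alternatives, and nothing is read from them. Wif1 was too low to test.

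Dkk2 and Dkk3 fell at the onset of differentiation in both arms. Dkk2 was 27.9-fold lower at D3 than at D0 in untreated and 16.1-fold lower in FGF8-pretreated cells, with a joint log2 change of -4.30 ± 0.33 (SE, edgeR adjusted p = 0.00305, at most 0.0145 over the alternatives). By D7 the joint change was -5.65 ± 0.35 (edgeR adjusted p = 0.00169, at most 0.00903). Dkk3 was 16.4-fold and 19.0-fold lower at D3, with a joint change of -4.07 ± 0.26 (edgeR adjusted p = 0.00249, at most 0.0342), and 60.5-fold and 84.6-fold lower at D7 (joint -6.06 ± 0.29, edgeR adjusted p = 0.00148, at most 0.0135).

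Axin2 rose in both arms. It was 18.3-fold higher at D3 than at D0 in untreated and 20.0-fold higher in FGF8-pretreated cells (joint log2 change 4.30 ± 0.36, edgeR adjusted p = 0.0032, at most 0.0289). At D7 it was 32.9-fold and 33.5-fold higher than at D0 (joint 5.07 ± 0.37, edgeR adjusted p = 0.00183, at most 0.0168). Its D0 levels rest on 6 and 5 counts, and 3.0% of its exon bases overlap the gene Gm11670 on the other strand.

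Wnt10b fell by 3.61 ± 0.76 on the log2 scale from D0 to D3 (edgeR adjusted p = 0.0186, 0.00127 to 0.142 over the alternatives). To D7 it fell by 3.33 ± 0.75 (edgeR adjusted p = 0.0181, 0.000975 to 0.185). The call was lost without the untreated D0 library, which alone held 81 counts, with log2 changes of -2.38 to D3 and -2.12 to D7. It was also lost without untreated D3 in both intervals (-3.36 and -3.28), without FGF8 D3 to D3 (-3.83) and without untreated D7 to D7 (-2.16), and to D3 with the arm left out of the model (-3.99).

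The other members did not pass from D0 to D3 or from D0 to D7. Sfrp1 changed by -1.27 ± 0.41 to D7 (edgeR adjusted p = 0.0502, 0.000242 to 0.396 over the alternatives), on the edge of the threshold. Sfrp2 had -0.87 ± 0.46 (edgeR adjusted p = 0.169, 0.000553 to 0.843 over the alternatives), with -1.57, called lower, without FGF8 D0 and 0.06 without untreated D0. Wnt5a had 0.26 (edgeR adjusted p = 0.431, 0.0694 to 0.84 over the alternatives), with -0.17 without untreated D7 and 0.65 without FGF8 D7. Sfrp4, whose arms moved oppositely up to D3, had 0.04 ± 1.22 (edgeR adjusted p = 0.982). Along with these changes, between D0 and D7, the summed adipocyte markers went from 8662 to 495374 in untreated cells. In FGF8-pretreated cells they went from 2370 to 572710. Most of each D0 sum was Lpl (8251 in untreated and 2025 in FGF8-pretreated cells). The summed proliferation markers (4 genes) went from 40461 to 14202 in untreated and from 46460 to 17881 in FGF8-pretreated cells. The part of these markers in the members' changes was not tested.

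**Figure D4:**
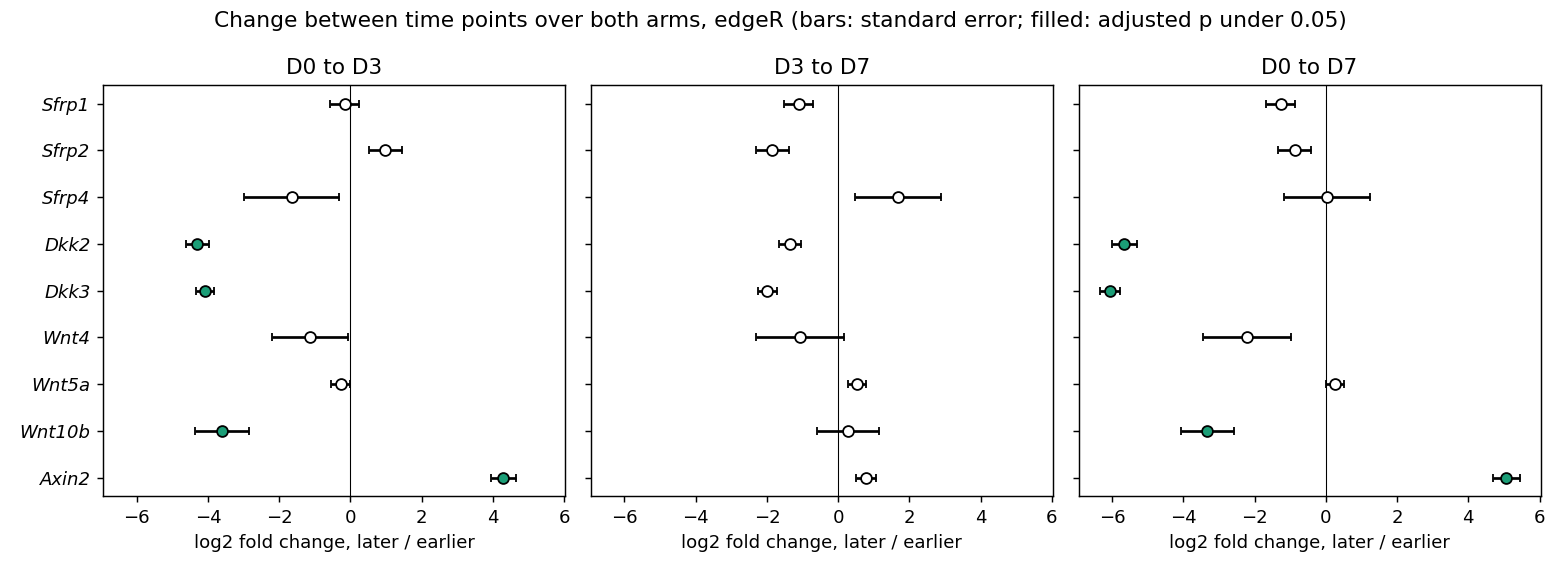
Joint log2 change of 9 genes between time points over both arms, from edgeR, with standard errors from a fit with 2 residual degrees of freedom, and filled points for an adjusted p under 0.05. Dkk2, Dkk3 and Wnt10b are filled on the left and Axin2 on the right from D0 to D3 and from D0 to D7, and no point is filled from D3 to D7.

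A list of 102 other WNT pathway genes was read in the same way, all of them in the files. After FGF8, 23 of 70 that reached the level minimum were lower and 3 higher at D0 (10.8% and 7.27% of all genes), with a median log2 difference of -0.48. At D3, 20 of 68 were lower and none higher (12.1% and 3.80% of all genes), with a median of -0.38. At D7, 14 of 68 were lower and none higher (8.74% and 1.12% of all genes), with a median of -0.16. The 3 higher genes at D0 were Tcf7, Nkd2 and Ccnd1. Some of those called lower passed through their untreated library only. These were Lgr5 and Tnfrsf19 at D0, Wnt9a, Wnt16 and Nkd2 at D3, and Wnt16 and Nkd2 at D7. The list was not tested as a set.

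Rspo2 and Rspo3 encode R-spondins, secreted agonists that keep WNT receptors at the cell surface, and both were lower after FGF8 at D0 and D7. Rspo2 had 1366, 525.6 and 413.1 normalized counts in untreated and 96.0, 84.2 and 73.2 in FGF8-pretreated cells, a log2 difference of -3.82, -2.63 and -2.48 at D0, D3 and D7. Rspo3 was -2.42 at D0, -0.90 at D3 and -1.56 at D7. Among the ligand genes of this list that reached the minimum, Wnt16 was furthest apart, with 237, 121 and 434 counts in untreated and 31, 16 and 24 in FGF8-pretreated cells (log2 -3.10, -3.66 and -3.91).

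Among the receptors, Ror1, a WNT5A receptor kinase, had log2 differences of -2.87, -1.76 and -2.38. Fzd2 had -1.30, -1.46 and -1.52, and Fzd1 had -0.71, -1.64 and -1.89. Fzd8 was lower at D0 (-2.32) and within 2-fold later (-0.14 and -0.15). Lgr5, an R-spondin receptor, had 54 counts in untreated and 2 in FGF8-pretreated cells at D0 (log2 -4.50, -8.04 to -3.03). The coreceptor gene Lrp6 was lower at D0 (-1.49) and less so later (-0.56 and -0.52), while Lrp5 had 0.01, 0.07 and 0.05.

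Ctnnb1, which encodes β-catenin, had log2 differences of -0.19, -0.09 and -0.13. Of 24 intracellular genes that reached the minimum at D0, 6 were lower and 1 higher, where 10.8% and 7.27% of all genes were. Tcf7 was higher at D0 (1.85) and Tcf7l2 lower (-1.86). The corepressor gene Tle2 had -2.05, -1.32 and -1.28.

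Genes listed as WNT targets or feedback genes went in different directions at D0. Ccnd1, which encodes cyclin D1, had 849.0 normalized counts in untreated and 4344 in FGF8-pretreated cells (log2 2.35), and was within 2-fold later (0.31 and 0.62). Nkd2 was higher at D0 (1.28) and lower at D3 and D7 (-1.56 and -1.32). Ccn5 had -4.30, -2.66 and -2.46, Dact1 had -2.01, -1.65 and -0.87, and Apcdd1, a membrane inhibitor of WNT signalling, had -1.22, -1.09 and -1.67.

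**Figure D5:**
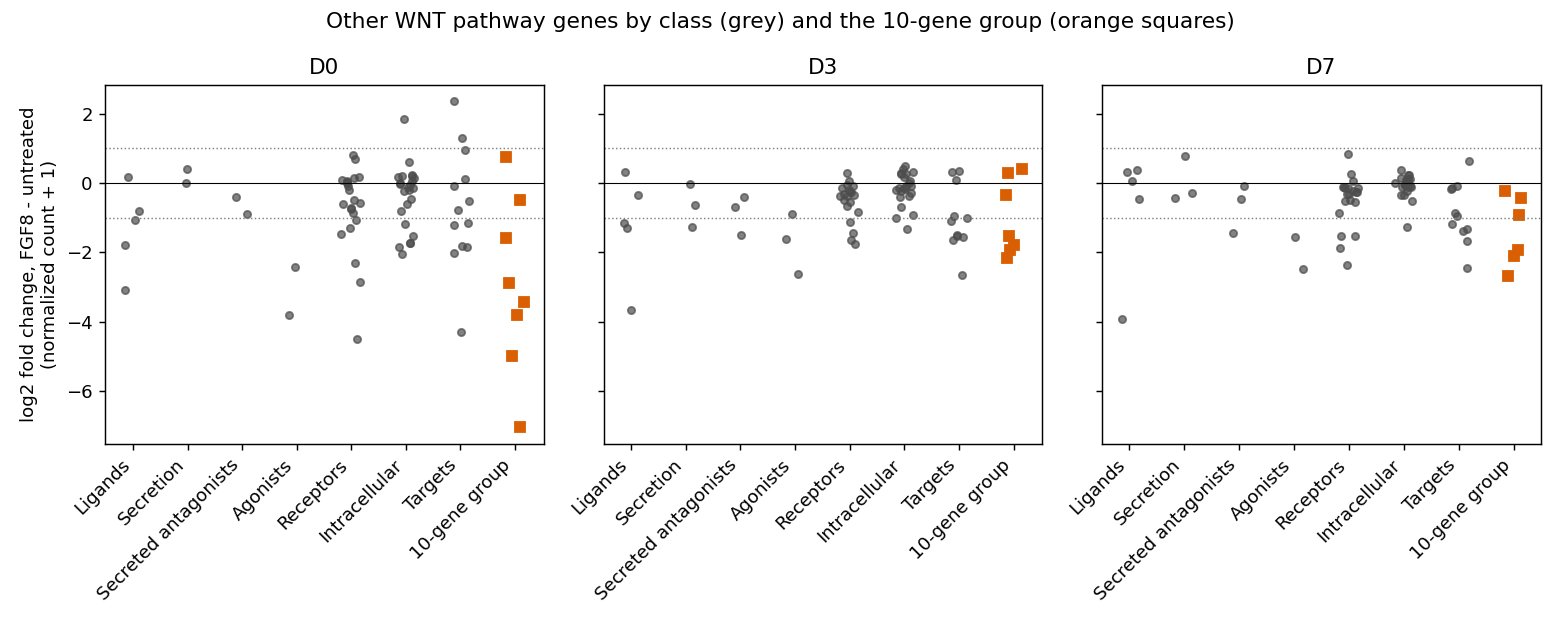
Log2 difference between FGF8-pretreated and untreated cells of the other WNT pathway genes by class at D0, D3 and D7, with 1 point per gene that reached a mean of 20 normalized counts (grey), the described members beside them (orange squares) and dotted lines at 2-fold. At D0, 23 of 70 grey points lie below the lower line and 3 above the upper one, and at D7, 14 of 68 lie below and none above.

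Over differentiation, 20 of 76 tested pathway genes fell and 17 rose from D0 to D3 (19.8% and 26.2% of all genes), and 24 fell and 15 rose from D0 to D7 (24.8% and 29.2% of all genes), by edgeR at an adjusted p under 0.05. These counts lie near the shares over all genes. None passed from D3 to D7. Ccnd1 changed by -5.26 ± 0.63 from D0 to D7 (edgeR adjusted p = 0.00389), Apcdd1 by -3.12 ± 0.21 (edgeR adjusted p = 0.00169) and Ctnnb1 by -1.12 ± 0.20 (edgeR adjusted p = 0.00991). Of 14 tested target or feedback genes of the list, 5 fell from D0 to D7 (Nkd2, Apcdd1, Ccnd1, Ccn4 and Dact3) and 1 rose, Nkd1, by 1.76 ± 0.47 (edgeR adjusted p = 0.0299). The ligand Wnt11 rose by 3.42 (edgeR adjusted p = 0.00843). Wls, which carries WNT ligands to the cell surface, fell by 2.10 ± 0.31 (edgeR adjusted p = 0.00601).

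Patterns over the 6 libraries were compared by the root mean square distance of centred log2 levels over the 11380 most abundant genes, those averaging 100 normalized counts or more. The 5 genes nearest to Sfrp1 were Mrgprf (0.27), Tgtp2 (0.28), C1s1 (0.32), Rspo2 (0.36) and Ror1 (0.38). C1s1 was also nearest to Sfrp2 (0.30), followed by Smpd3 (0.32). Adam22 (0.29) was nearest to Dkk2, Ptgfr (0.31) to Dkk3, and Zc3h12a (0.30) to Axin2. The gene nearest to Sfrp4 was Fndc1, at 0.64. The 6 points are single libraries, and a short distance says only that the profiles look alike.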

How the data were processed

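Bulk mRNA from 6 libraries of immortalized mouse brown preadipocytes was read as deposited. The authors trimmed reads with Trim Galore, aligned them to GRCm39 with HISAT2 and counted them per gene with featureCounts. The deposited files hold these raw counts for 26264 symbols. Versions, annotation, strand setting and multi-mapping are not given in the sources used here. Of the symbols, 91.0% were found in GENCODE M39, which gave coordinates, exon lengths and promoters. The promoter of 1 member is not reported here.

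Size factors came from DESeq2 1.42.0. FGF8 was compared with untreated cells within a day, from 1 library each, without a test, as log2 of normalized counts plus 1, and as 2-fold lower or higher where the mean reached 20. Time points were compared with edgeR 4.0.16 (R 4.3.3), with quasi-likelihood fits of day and arm, TMM scaling, filterByExpr and Benjamini-Hochberg adjustment, and SE from the fold change and F. On simulated counts for D0 against D3 over 14432 genes, 199 of 200 genes changed 4-fold were recovered, and 15 unchanged genes were called. The simulation had 1 fixed dispersion and no difference between arms. It therefore cannot show how changes that differ between arms are recovered. Members and gene lists were chosen with earlier results of these data known. Named genes were the members, pathway genes at least 4-fold apart in any day or among the top 8 of their class per kb, nearest profiles and markers. Tcf7, Tcf7l2, Nkd1 and Nkd2 were named after their values were seen. No pair of libraries held identical values. At a depth of 16403254 to 38551551 counts, intervals cover counting error only. Alternatives covered scaling, filter, pseudocount, fold, DESeq2, the arm term and leaving out each library.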

Additional observations from a re-analysis of the deposited data

Results flagged for a closer look

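Wnt5a differed between the arms in opposite directions at different days. Its log2 difference after FGF8 was 0.73 at D0 and 0.41 at D3, and -0.23 at D7, and each counting interval excluded 0. With 1 library per condition, the difference between the days was not tested. Under the alternative scalings and pseudocounts it kept these directions, with 0.70 to 0.79 at D0, 0.30 to 0.41 at D3 and -0.29 to -0.20 at D7.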

How the results depend on the processing

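All 21 FGF8 differences of members above the level minimum kept their direction under every scaling and pseudocount tried. Of 105 alternative values, 2 moved beyond the counting interval, those of Sfrp1 (-2.29) and Sfrp2 (-1.64) at D3 with total counts, which also moved the median of all genes at D3 by -0.11. The count of members higher at D0 was 1 in place of 0 without the filter (Wif1, 2 counts against 0) and 1 with a 1.5-fold rule (Wnt5a). The count lower at D3 was 2 in place of 4 with a mean of at least 100, and 1 with a 4-fold rule. From D3 to D7, 3 members were lower with DESeq2 and 1 without the filter, in place of 0. Shares over all genes were not computed under these filters, fold rules and tests, or with 1 library left out. When 1 library was left out, the lone library of that day was assumed to vary like the others. The counts from these fits have no share over all genes to be read against, so nothing about the members is read from them. Members called lower then numbered 2 to 6 from D0 to D3, 0 to 4 from D3 to D7 and 2 to 7 from D0 to D7, and members called higher 1 to 4, 0 to 1 and 1 to 2, and each highest count came without FGF8 D0 or untreated D0. Directions turned, with a call, for Sfrp1 from D0 to D3 (-0.80 without FGF8 D0 to 0.59 without untreated D0), Sfrp4 from D0 to D3 (-3.13 to 2.12, without the same libraries) and Sfrp4 from D0 to D7 (-1.51 without FGF8 D0 to 3.74 without untreated D0). The sign also changed, without a call on the turned side, for Wnt4 in all 3 intervals (-2.08 to 2.05, -2.49 to 0.97 and -3.42 to 0.84), Wnt5a from D0 to D3 (-0.57 to 0.08) and D0 to D7 (-0.17 to 0.65), Sfrp2 from D0 to D7 (-1.57 to 0.06) and Wnt10b from D3 to D7 (-0.50 to 1.47), and for Sfrp4 from D0 to D7 with DESeq2 size factors (-0.01) or no arm term (-1.19). It likewise changed for Sfrp1 from D0 to D3 without untreated D3 (0.38) and for Sfrp4 from D0 to D7 without FGF8 D7 (-0.81). The cause was not tested. Sfrp1 passed from D0 to D7 with DESeq2 or its size factors, without the filter, and without FGF8 D0 or FGF8 D3. Dkk2, Dkk3 and Axin2 kept their calls from D0 to D3 and from D0 to D7 under all alternatives run. No paired analysis was possible because each condition is 1 library and the labels give no replicate numbers to pair by. The arm was a term in the fit over days, and FGF8 within days was not tested, since the members were chosen on it. Counts under about 20 limit Wnt4, Wnt10b, Wif1, Dkk3 at D7 and Axin2 at D0.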
